A study of Mus musculus with 9 samples.

Results

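Transcripts of 39 mouse genes of the complement and coagulation cascades were followed across 9 liver RNA-seq libraries. The genes were taken by name from a fixed list of complement components and regulators, clotting factors, kininogens and clotting inhibitors, with the fibrinogen chains left out. All 39 were among the 16266 genes listed in both deposited tables, 19 of them on the complement side and 20 on the coagulation side. The study asked how raised Mettl3, the catalytic subunit of the enzyme complex that writes N6-methyladenosine on messenger RNA, alters liver transcripts in mice given ethanol chronically and then as a single large dose. Per the design text, wild-type mice were given an adeno-associated virus of serotype 8 by tail vein, whose TBG promoter drives expression in hepatocytes. Feeding began 3 weeks after the virus and lasted 10 days before the binge. The first group, called Mettl3 livers, is labelled Mettl3 overexpression and ethanol-fed, with the virus that carries Mettl3 with a FLAG tag, the ethanol diet and the ethanol binge (3 libraries). The ethanol livers are labelled WT and ethanol-fed, with the ethanol diet and binge (3 libraries), and the pair-fed livers are labelled WT and pair-fed, with the control diet and a maltose binge (3 libraries). The design describes a virus with an empty cloning site in place of Mettl3, and the titles of the WT samples name no virus, so that its use in those groups is read from the design. Pair-fed livers with the Mettl3 virus were not analysed here, and age and sex are not in the labels used here.

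Complement and coagulation are plasma protease cascades whose soluble proteins come largely from hepatocytes. In the classical and lectin pathways, C1q or mannose-binding lectins and collectins recognise a surface and switch on proteases that cleave C4 and C2, the alternative pathway uses factor B, and all routes meet at C3 and end in the membrane attack complex. In coagulation, vitamin K-dependent proteases and their cofactors generate thrombin, which clots fibrinogen, while antithrombin, heparin cofactor II, the protein C system and the protein Z system hold thrombin formation back and plasmin dissolves the clot. Several of these genes are acute-phase genes, whose transcripts in liver are known to move with inflammation.

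Each library held between 34656256 and 38159563 reads over the listed genes, as recovered from the deposited values, and the members between 610 reads (the lowest C6 library) and 636113 reads (the highest C3 library). All values below are FPKM, the authors' fragment counts scaled to gene length and library total, and fold changes are on the log2(FPKM + 1) scale from limma, with a call at a Benjamini-Hochberg adjusted p under 0.05 over all genes tested. The Mettl3 level was 38.5, 24.98 and 33.3 FPKM in Mettl3 livers, 5.44, 4.86 and 3.78 FPKM in ethanol livers and 3.97, 3.10 and 3.38 FPKM in pair-fed livers. Its log2 fold change, Mettl3 livers over ethanol livers, was 2.54 (SE 0.19, adjusted p = 0.0257). That call was lost when Mettl3 liver 1 or 3 or ethanol liver 2 or 3 was left out (adjusted p up to 0.201). Pearson's r between log2 profiles within a group ran from 0.972 to 0.992 among Mettl3 livers, from 0.972 to 0.986 among ethanol livers and from 0.991 to 0.994 among pair-fed livers. One liver stood apart in each ethanol-fed group: Mettl3 liver 3 was the one of its group nearest to the pair-fed mean for 80.7% of 4996 called genes, and ethanol liver 1 for 64.9% of 3623. The labels do not say that libraries of a group came from separate animals, so p-values measure the spread between these libraries, which may in part be technical. The hepatocyte markers Alb, Apoa1, Ttr, Cps1, Serpina1c, Tat and Hnf4a were all detected, with a summed level of 38803 to 47809 FPKM in Mettl3 livers, 43911 to 60015 FPKM in ethanol livers and 52890 to 58870 FPKM in pair-fed livers. Most of this sum was Alb in every library, at 30108 to 47905 FPKM. Over all genes tested, the log2 fold changes had a median of -0.14 for ethanol over pair-fed livers, -0.18 for Mettl3 over pair-fed livers and -0.04 for Mettl3 over ethanol livers. After median-ratio scaling of the libraries these medians lay at 0.00 in each comparison, so both scalings are given for each member whose call differs between them. Mettl3 itself, in ethanol over pair-fed livers, was at 0.34 (adjusted p = 0.0947, not called) before scaling. After scaling it was at 0.48 (adjusted p = 0.0175, called higher).

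Promoters are shown for 5 members on which the results turn, chosen with their values known: C4bp, Cpb2, C8a and C8b, which rose in at least 1 comparison, and Mbl2, which fell. C8a and C8b are neighbours on chromosome 4, C8b at 104766317 to 104804548 and C8a at 104815679 to 104876487, with 11130 bases and no other annotated gene between them. Each line is read 5′ to 3′ on the gene's strand and begins 250 bases before a RefSeq transcript start (build GRCm38.p6), with capitals for the motifs found. It ends at that start for Cpb2 and C8b, and for C4bp, C8a and Mbl2 it stops where the annotated gene or an exon begins farther upstream. The motifs searched on both strands were an HNF1 half-site GTTAAT, HNF4 CAAAGTCC, C/EBP TTGCNNAA, a STAT site TTCNNNGAA and the D-box TTANGTAA. 
C4bp (chr1:130661658-130661868, minus strand): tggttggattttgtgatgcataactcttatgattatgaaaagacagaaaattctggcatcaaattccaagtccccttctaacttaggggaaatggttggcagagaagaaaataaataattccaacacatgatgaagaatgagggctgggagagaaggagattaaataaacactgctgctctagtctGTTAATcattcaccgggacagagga
Cpb2 (chr14:75242037-75242286, plus strand): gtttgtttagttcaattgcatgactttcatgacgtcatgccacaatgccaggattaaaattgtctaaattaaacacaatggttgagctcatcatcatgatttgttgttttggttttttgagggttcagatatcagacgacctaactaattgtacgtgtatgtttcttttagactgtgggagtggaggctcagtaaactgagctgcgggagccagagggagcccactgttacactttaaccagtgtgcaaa
C8a (chr4:104876488-104876648, minus strand): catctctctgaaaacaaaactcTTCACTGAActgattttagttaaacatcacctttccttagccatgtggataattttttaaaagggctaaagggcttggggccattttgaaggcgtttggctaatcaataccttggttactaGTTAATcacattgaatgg
C8b (chr4:104766067-104766316, plus strand): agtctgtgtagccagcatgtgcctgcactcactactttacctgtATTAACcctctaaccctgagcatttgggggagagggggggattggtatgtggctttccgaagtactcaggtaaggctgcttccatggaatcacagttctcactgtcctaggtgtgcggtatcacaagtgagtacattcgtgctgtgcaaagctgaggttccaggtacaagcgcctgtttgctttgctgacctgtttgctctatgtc
Mbl2 (chr19:30232678-30232905, plus strand): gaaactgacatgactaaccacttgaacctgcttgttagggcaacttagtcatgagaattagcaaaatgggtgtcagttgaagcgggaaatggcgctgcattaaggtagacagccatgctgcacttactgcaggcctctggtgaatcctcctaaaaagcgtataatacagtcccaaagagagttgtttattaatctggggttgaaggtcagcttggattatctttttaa
C4bp held the HNF1 half-site 64 to 59 bases before the start, C8a held it at 107 to 102 bases with a STAT match at 228 to 220 bases, and C8b held it at 206 to 201 bases, there on the opposite strand. No 2 matches overlapped, and none of the 5 motifs was found in the windows of Cpb2 and Mbl2. Of the 39 members, 29 had a promoter entry. Of these 29, 7 (24.1%) held the HNF1 half-site (C1ra, C4bp, C8a, C8b, F13b, Hc and Proz), against 6.52% of 27025 RefSeq promoters of the same length. Among these holders C1ra, F13b, Hc and Proz were called lower both in ethanol and in Mettl3 over pair-fed livers. C4bp and C8b were called higher in both, and C8a was called higher in Mettl3 over pair-fed livers only. The C/EBP letters were in 7 (24.1%; C1s1, C3, C9, F11, F9, Klkb1 and Kng2), against 9.55% of all promoters. The STAT letters were in 4 (13.8%; C8a, F9, Masp2 and Pros1), against 7.18%, the D-box in 1 (3.45%; F13b), against 2.11%, and the HNF4 letters in 0, against 1.22%. These matches are descriptions of letters in a window, and binding was not measured.

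Member levels spanned a wide range, with a mean over the 9 libraries of 6.61 FPKM for C6 and 2336 FPKM for C3. C3, the protein on which all complement routes meet, averaged 2956 ± 299 FPKM in Mettl3 livers, 2172 ± 569 FPKM in ethanol livers and 1879.6 ± 134 FPKM in pair-fed livers (SD, n = 3 each), above every other member in each group. Antithrombin (Serpinc1), plasminogen (Plg), kininogen 1 (Kng1) and prothrombin (F2) came next, at 1033, 1014, 857 and 646 FPKM as pair-fed means. Together the 39 members made up 2.17%, 2.29% and 2.38% of all FPKM in Mettl3 livers, 1.92%, 2.23% and 1.94% in ethanol livers and 2.36%, 2.27% and 2.37% in pair-fed livers. Every ethanol liver was therefore below every pair-fed liver in this share, and the Mettl3 livers spanned the pair-fed range. The coagulation members alone made up 1.05%, 1.10% and 1.18% in Mettl3 livers, 1.03%, 1.11% and 0.998% in ethanol livers and 1.26%, 1.24% and 1.28% in pair-fed livers. Every ethanol-fed liver of either virus was below every pair-fed liver in this coagulation share. The complement share of 0.885% to 1.12% in ethanol livers overlapped the 1.02% to 1.10% of pair-fed livers, and the Mettl3 livers, at 1.12% to 1.20%, were above the pair-fed livers. C3 alone made up 0.576% to 0.683% in Mettl3 livers, 0.340% to 0.583% in ethanol livers and 0.373% to 0.421% in pair-fed livers. Without C3 the members made up 1.57%, 1.60% and 1.81% in Mettl3 livers and 1.48% to 1.65% in ethanol livers. Each of these livers was below the 1.89% to 1.95% of pair-fed livers. On the same FPKM scale, the median log2 fold change over all genes tested was -0.14 in ethanol and -0.18 in Mettl3 over pair-fed livers. Of all genes taken singly, 37.1% and 44.2% lay below pair-fed livers with no overlap in these comparisons.

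**Figure D1:**
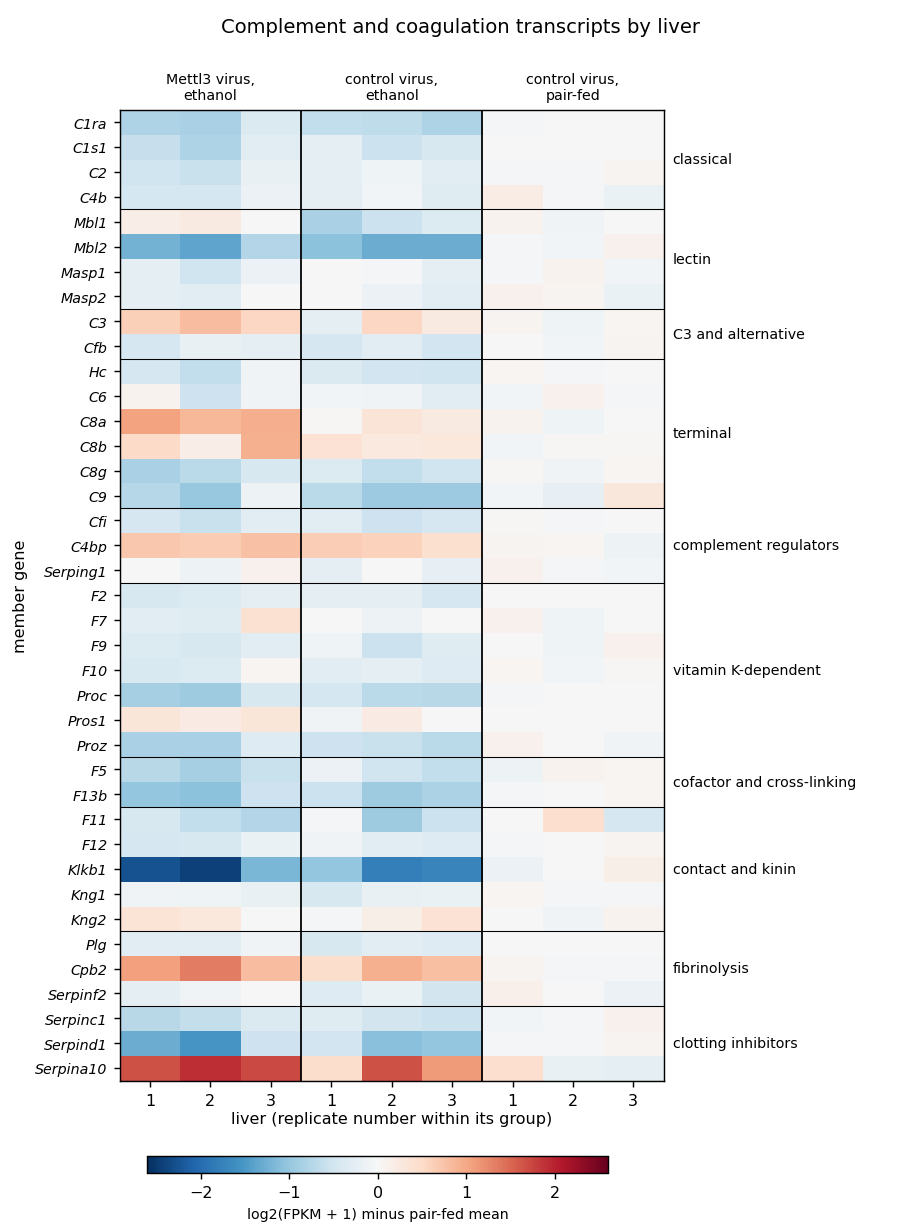
Level of each of the 39 members (rows, grouped by role) in each of the 9 livers (columns), as log2(FPKM + 1) minus the pair-fed mean of the gene. Serpina10, Cpb2 and C4bp are red in the ethanol-fed livers of both viruses, Klkb1, Mbl2 and Serpind1 are blue, and Mettl3 liver 3 and ethanol liver 1 are often paler than the other livers of their group.

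Many members were lower and a few higher in ethanol livers than in pair-fed livers. In ethanol over pair-fed livers, 4 members rose (Serpina10, Cpb2, C4bp and C8b), 19 fell and 16 did not pass the test. Among all 10064 genes tested 36% were called, 10% higher and 26% lower, so the 19 of 39 lower calls stand against 26% of all genes, and the 4 of 39 higher calls against 10%. The share called was 41.8% among the 4608 genes with a mean at or above that of the lowest member. The members' median log2 fold change was -0.32, against -0.14 for all genes, and their range ran from -1.50 for Klkb1 to 1.07 for Serpina10. After median-ratio scaling the same 4 rose and 10 of the 19 fell, with a members' median of -0.15, against calls in 34.9% of all genes, 17.2% higher and 17.7% lower. Ethanol livers lay above pair-fed livers with no overlap for 4 members and below for 24, against 15.4% and 37.1% of all genes. Without ethanol liver 1, the library that stood apart, 27 members were called. Leaving out ethanol liver 3 left 14 calls, pair-fed liver 1 left 13, pair-fed liver 2 left 12 and pair-fed liver 3 left 11. The calls for C1ra, Mbl2, Hc, C9, C4bp, Proc, Proz, F13b, Klkb1, Cpb2 and Serpind1 held with any single library left out and under both scalings. In bulk liver RNA, fewer cells of a type and less RNA per cell cannot be told apart.

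Mettl3 livers set against pair-fed livers, fitted with all 9 libraries together, had 7 members higher, 19 lower and 13 not called. Of all 10229 genes tested 48.8% were called, 13.9% higher and 34.9% lower, and 52.5% of the 4609 genes at or above the mean of the lowest member. Mettl3 livers lay above pair-fed livers with no overlap for 7 members and below for 21, against 19.3% and 44.2% of all genes. The 7 higher members were Serpina10, Cpb2, C8a, C4bp, C3, C8b and Pros1, and the largest falls were those of Klkb1, Serpind1 and Mbl2. Fold changes ran from -1.96 to 1.76 with a median of -0.34, against -0.18 for all genes. After scaling, the 7 rose and 11 fell, with a members' median of -0.11, against calls in 47.1% of all genes, 23.3% higher and 23.8% lower. Of the 26 calls, 16 held with any single library left out, and 15 of these also held after scaling. Without Mettl3 liver 3, which stood apart, 30 members were called, while leaving out Mettl3 liver 1, Mettl3 liver 2 or pair-fed liver 2 left 17. This comparison shares its pair-fed libraries with the previous one, so agreement between them is not independent. Between Mettl3 and ethanol livers, limma called 0 of 39 members, against 0.0103% of 9706 genes (Mettl3 itself) and 0.0217% of those at or above the mean of the lowest member, and that comparison is described after the single genes.

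**Figure D2:**
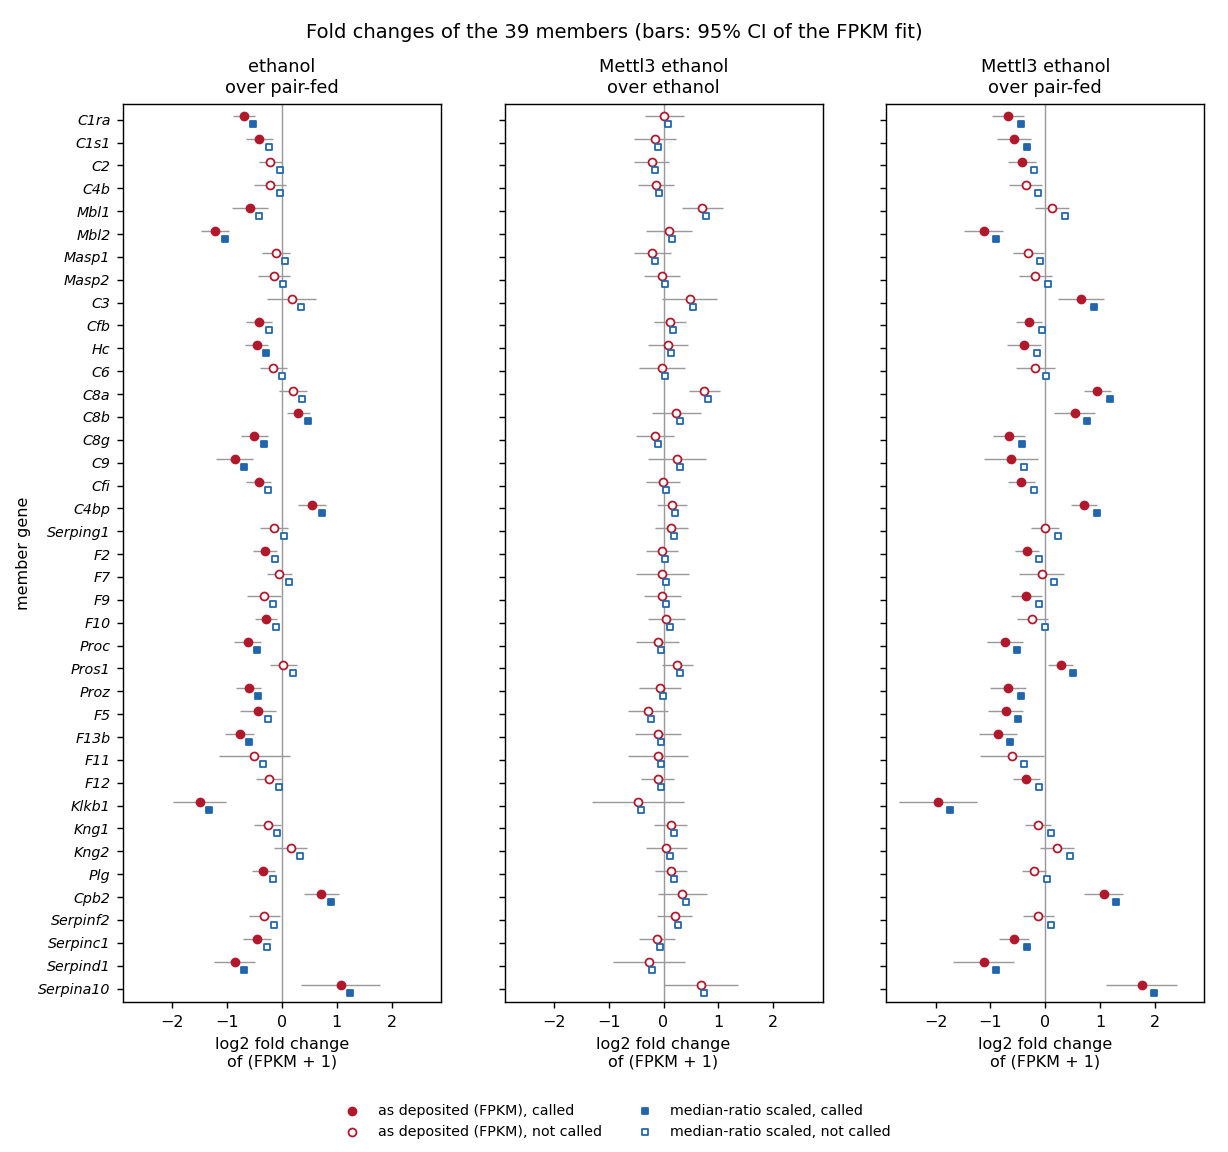
Log2 fold change of each member in ethanol over pair-fed, Mettl3 over ethanol and Mettl3 over pair-fed livers, from FPKM (circles, with 95% confidence intervals) and after median-ratio scaling (squares); filled marks passed an adjusted p of 0.05. Filled marks are frequent in both comparisons with pair-fed livers and missing from Mettl3 over ethanol livers, where C8a and Mbl1 lie farthest to the right.

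Of the 4 classical-pathway members, 2 fell in ethanol over pair-fed livers (C1ra and C1s1) and 3 in Mettl3 over pair-fed livers (C1ra, C1s1 and C2). C1ra encodes the C1r protease, which cleaves C1s when C1q binds a target. C1ra measured 45.9, 44.5 and 61.8 FPKM in Mettl3 livers 1, 2 and 3, 51.8, 50.99 and 46.1 FPKM in ethanol livers and 79.03, 81.7 and 81.7 FPKM in pair-fed livers. Every ethanol-fed liver of either virus was below every pair-fed liver, with a log2 fold change of -0.69 (SE 0.09, adjusted p = 0.00227) in ethanol and -0.68 (SE 0.13, adjusted p = 0.00346) in Mettl3 over pair-fed livers. C1s1 encodes the C1s protease, which cleaves C4 and C2. The Mettl3 livers held C1s1 at 104, 89.7 and 129 FPKM, the ethanol livers at 132, 107 and 118 FPKM and the pair-fed livers at 157, 157 and 160.2 FPKM. Again no ethanol-fed liver reached the pair-fed range, and the log2 fold change was -0.41 (SE 0.10, adjusted p = 0.0208) in ethanol and -0.57 (SE 0.14, adjusted p = 0.00926) in Mettl3 over pair-fed livers. The first of these C1s1 calls was lost after scaling (-0.24, adjusted p = 0.0889) and without ethanol liver 2 or 3 or any pair-fed liver (adjusted p up to 0.0776). C4b, which encodes the C4 protein, was the most abundant gene of the pathway. Per liver, C4b stood at 199, 199.6 and 248 FPKM (Mettl3), 229, 261 and 219.8 FPKM (ethanol) and 312, 270.3 and 245 FPKM (pair-fed). Its groups overlapped and it passed neither comparison with pair-fed livers, at -0.22 (SE 0.12, adjusted p = 0.207) in ethanol and -0.35 (SE 0.13, adjusted p = 0.0534) in Mettl3 livers. C2, the protease that joins C4 in the C3 convertase, was at -0.21 (SE 0.09, adjusted p = 0.117) in ethanol and -0.43 (SE 0.12, adjusted p = 0.0148) in Mettl3 over pair-fed livers, the second a call lost after scaling, at -0.20 (adjusted p = 0.115), and without Mettl3 liver 1, Mettl3 liver 2 or pair-fed liver 3 (adjusted p up to 0.0598). C1ra and C1s1 are neighbours on chromosome 6 with 6903 bases between them, and each has a close copy (C1rb and C1s2), whose FPKM was under 1 in every library. How the authors' counting split reads between C4b and its near-identical copy C4a is not stated, so the C4b level is uncertain.

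The lectin pathway held the second largest fall of the members in ethanol over pair-fed livers. Mbl2 encodes mannose-binding lectin C, a plasma protein that binds sugars on microbes and damaged cells. For Mbl2 the FPKM values were 180.3, 164 and 251 in Mettl3 livers, 202, 173 and 174 in ethanol livers and 413, 402 and 462 in pair-fed livers. The ethanol-fed livers of both viruses lay far below the pair-fed livers, and means were 198 ± 45.95 FPKM in Mettl3 livers, 183 ± 16.7 FPKM in ethanol livers and 426 ± 32.1 FPKM in pair-fed livers (SD, n = 3 each). The log2 fold change was -1.22 (SE 0.11, adjusted p = 0.000841) in ethanol and -1.12 (SE 0.16, adjusted p = 0.0012) in Mettl3 over pair-fed livers, and -1.04 (adjusted p = 0.00128) and -0.89 (adjusted p = 0.00129) after scaling. Mbl1 encodes mannose-binding lectin A, the second lectin of this kind in the mouse. FPKM of Mbl1 came to 50.1, 52.7 and 43.96 in the Mettl3 group, 24.2, 30.2 and 34.9 in the ethanol group and 47.5, 41.7 and 44.8 in the pair-fed group. Ethanol livers were below both other groups with no overlap, while Mettl3 livers overlapped the pair-fed range; the log2 fold change was -0.58 (SE 0.14, adjusted p = 0.0179) in ethanol over pair-fed livers and 0.13 (SE 0.14, adjusted p = 0.462) in Mettl3 over pair-fed livers. The ethanol call for Mbl1 was lost after scaling (-0.41, adjusted p = 0.114) and without any 1 pair-fed liver (adjusted p up to 0.0665). Masp1 and Masp2, the proteases that the lectins carry, were called in neither comparison, with log2 fold changes of -0.10 and -0.14 in ethanol and -0.31 and -0.18 in Mettl3 over pair-fed livers.

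C3 rose in Mettl3 over pair-fed livers, and Cfb fell in both comparisons with pair-fed livers before scaling. The C3 level was 2869.7, 3288 and 2709.99 FPKM in Mettl3 livers, 1591, 2728 and 2197 FPKM in ethanol livers and 1978, 1727 and 1934 FPKM in pair-fed livers. Ethanol liver 1 was below and ethanol livers 2 and 3 above all pair-fed livers, and C3 did not pass in ethanol over pair-fed livers (0.18, SE 0.19, adjusted p = 0.498), while all 3 Mettl3 livers exceeded the pair-fed range (0.65, SE 0.18, adjusted p = 0.0179). The C3 call in Mettl3 over pair-fed livers was lost without Mettl3 liver 2 or pair-fed liver 2 (adjusted p up to 0.0681). Cfb, the protease of the alternative convertase, was lower in ethanol livers at -0.41 (SE 0.10, adjusted p = 0.0195) and in Mettl3 livers at -0.29 (SE 0.11, adjusted p = 0.0455), each over pair-fed livers. Neither Cfb call held after scaling, at -0.24 (adjusted p = 0.12) and -0.06 (adjusted p = 0.662), or without ethanol liver 3 or any 1 pair-fed liver, and the second was also lost without Mettl3 liver 1 or 2 (adjusted p up to 0.0787 and 0.155). The Cfb over C3 ratio within a liver, which no library scaling alters, was 0.119 ± 0.0125 in Mettl3 livers, 0.154 ± 0.0371 in ethanol livers and 0.228 ± 0.0103 in pair-fed livers (SD, n = 3 each), and every ethanol-fed liver was below every pair-fed liver. Cfb and C2 lie 87 bases apart on chromosome 17, and whether the authors counted by strand is unknown.

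The terminal genes, whose products build the membrane attack complex, split by subunit. In ethanol over pair-fed livers 1 of 6 rose (C8b) and 3 fell (C9, C8g and Hc), and in Mettl3 over pair-fed livers C8a and C8b rose and C8g, C9 and Hc fell. C9 encodes the protein that polymerises into the pore. C9 measured 60.2, 50.2 and 92.4 FPKM in Mettl3 livers 1, 2 and 3, 61.7, 51.8 and 52.1 FPKM in ethanol livers and 95.9, 86.8 and 124 FPKM in pair-fed livers. All ethanol livers were below all pair-fed livers, at -0.86 (SE 0.15, adjusted p = 0.0057), while Mettl3 liver 3 reached the pair-fed range, at -0.62 (SE 0.22, adjusted p = 0.0409). That second C9 call was lost after scaling (-0.39, adjusted p = 0.111) and without any 1 library other than Mettl3 liver 3 and ethanol liver 1 (adjusted p up to 0.144). Hc, the mouse gene for C5, supplies the protein whose cleavage starts the complex. Per liver, Hc stood at 146, 127 and 185 FPKM (Mettl3), 152, 141 and 137 FPKM (ethanol) and 207, 192 and 196 FPKM (pair-fed). No liver of either ethanol-fed group reached the pair-fed range, and the fold change was -0.46 (SE 0.09, adjusted p = 0.00848) in ethanol and -0.39 (SE 0.13, adjusted p = 0.0388) in Mettl3 over pair-fed livers. The Hc call in Mettl3 livers was lost after scaling (-0.16, adjusted p = 0.224) and without any 1 library other than Mettl3 liver 3 and ethanol liver 1 (adjusted p up to 0.143). C6, the least abundant member, passed in neither comparison (-0.15 in ethanol and -0.18 in Mettl3 over pair-fed livers).

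C8 is made of an alpha, a beta and a gamma chain, encoded by C8a, C8b and C8g, and their transcripts went different ways. For C8a the FPKM values were 108, 94.8 and 101 in Mettl3 livers, 53.5, 66.2 and 60.9 in ethanol livers and 55.4, 48.1 and 52.7 in pair-fed livers. Mettl3 livers were above both other groups with no overlap, whereas ethanol livers overlapped pair-fed livers; C8a was at 0.95 (SE 0.11, adjusted p = 0.000626) in Mettl3 over pair-fed and at 0.20 (SE 0.11, adjusted p = 0.187) in ethanol over pair-fed livers. FPKM of C8b came to 54.2, 43.00 and 73.1 in the Mettl3 group, 49.8, 45.2 and 46.1 in the ethanol group and 36.1, 38.9 and 38.95 in the pair-fed group. Both ethanol-fed groups lay above the pair-fed livers, by 0.53 (SE 0.17, adjusted p = 0.0255) in Mettl3 livers and 0.30 (SE 0.09, adjusted p = 0.0356) in ethanol livers. The C8b calls were lost without any 1 pair-fed liver, and further without Mettl3 liver 1 in the first and ethanol liver 2 or 3 in the second (adjusted p up to 0.0767 and 0.132). The Mettl3 livers held C8g at 100.2, 111 and 135 FPKM, the ethanol livers at 142, 116 and 127 FPKM and the pair-fed livers at 186, 171 and 188 FPKM. The gamma chain went down in both, at -0.66 (SE 0.13, adjusted p = 0.00384) in Mettl3 and -0.50 (SE 0.11, adjusted p = 0.0117) in ethanol over pair-fed livers, the second call being lost without pair-fed liver 3 (adjusted p = 0.0538). The C8a over C8g ratio was 1.08, 0.854 and 0.751 in Mettl3 livers, 0.376, 0.569 and 0.48 in ethanol livers and 0.298, 0.281 and 0.281 in pair-fed livers. These ratios were higher in every Mettl3 liver than in every ethanol liver, and higher in every ethanol liver than in every pair-fed liver. C8a over C8b overlapped between the groups, with 1.86 ± 0.425 in Mettl3 livers, 1.29 ± 0.198 in ethanol livers and 1.37 ± 0.15 in pair-fed livers (SD, n = 3 each).

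Among the complement regulators, C4bp rose in both comparisons with pair-fed livers, Cfi fell in both, and Serping1 passed in neither. C4bp encodes C4b-binding protein, a plasma cofactor that helps factor I destroy C4b. C4bp measured 405, 398 and 425 FPKM in Mettl3 livers 1, 2 and 3, 393, 378 and 335 FPKM in ethanol livers and 264, 261 and 227 FPKM in pair-fed livers. The 3 groups did not overlap, with Mettl3 livers highest and pair-fed livers lowest, and means were 409 ± 13.9 FPKM in Mettl3 livers, 368 ± 30.3 FPKM in ethanol livers and 251 ± 20.1 FPKM in pair-fed livers (SD, n = 3 each). Its fold change was 0.55 (SE 0.11, adjusted p = 0.0091) in ethanol and 0.71 (SE 0.10, adjusted p = 0.00139) in Mettl3 over pair-fed livers, and 0.73 (adjusted p = 0.00288) and 0.94 (adjusted p = 0.000326) after scaling. Serping1 encodes C1 inhibitor, which blocks C1r, C1s, the lectin proteases and plasma kallikrein. Per liver, Serping1 stood at 378, 344 and 409 FPKM (Mettl3), 320.1, 379.8 and 326 FPKM (ethanol) and 408, 364 and 361 FPKM (pair-fed). Its groups overlapped, with -0.15 (SE 0.11, adjusted p = 0.328) in ethanol and -0.0033 (SE 0.11, adjusted p = 0.983) in Mettl3 over pair-fed livers. Cfi, the protease factor I, was at -0.43 (SE 0.10, adjusted p = 0.0154) in ethanol and -0.44 (SE 0.11, adjusted p = 0.0105) in Mettl3 over pair-fed livers, and both calls were lost after scaling, at -0.25 (adjusted p = 0.0692) and -0.21 (adjusted p = 0.0754). The Cfi call in ethanol livers was also lost without any 1 pair-fed liver (adjusted p up to 0.063).

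Of 7 vitamin K-dependent genes, 4 fell in ethanol over pair-fed livers (Proc, Proz, F2 and F10) and none rose; in Mettl3 over pair-fed livers Proc, Proz, F2 and F9 fell and Pros1 rose. Proc encodes protein C, which when activated cleaves factors V and VIII. For Proc the FPKM values were 94.8, 89.8 and 129 in Mettl3 livers, 126, 105 and 104 in ethanol livers and 168, 175 and 175 in pair-fed livers. Pair-fed livers were above every ethanol-fed liver, and Proc was at -0.63 (SE 0.10, adjusted p = 0.00517) in ethanol and -0.74 (SE 0.14, adjusted p = 0.00386) in Mettl3 over pair-fed livers. Proz encodes protein Z, the cofactor with which the inhibitor made by Serpina10 binds activated factor X. FPKM of Proz came to 55.5, 55.1 and 78.6 in the Mettl3 group, 68.9, 66.3 and 61.1 in the ethanol group and 108, 99.2 and 93.6 in the pair-fed group. The same separation held for Proz, at -0.61 (SE 0.10, adjusted p = 0.00455) in ethanol and -0.68 (SE 0.14, adjusted p = 0.00505) in Mettl3 over pair-fed livers. F2 encodes prothrombin and was the most abundant of the 7. The F2 level was 485, 506 and 544 FPKM in Mettl3 livers, 540.02, 547 and 479.6 FPKM in ethanol livers and 645, 646 and 648 FPKM in pair-fed livers. Pair-fed livers were nearly equal to each other and above all others, with -0.31 (SE 0.10, adjusted p = 0.0413) in ethanol and -0.34 (SE 0.10, adjusted p = 0.0182) in Mettl3 livers, but neither call held after scaling (-0.13 and -0.11, adjusted p = 0.259 and 0.289). Both F2 calls were also lost without any 1 pair-fed liver, the first without ethanol liver 2 or 3 and the second without Mettl3 liver 1 or 2 (adjusted p up to 0.139 and 0.0648).

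Among the remaining vitamin K-dependent genes, F10 was at -0.29 (SE 0.09, adjusted p = 0.0356) in ethanol over pair-fed livers, a call lost after scaling (-0.12, adjusted p = 0.349) and without ethanol liver 2 or 3 or any 1 pair-fed liver (adjusted p up to 0.131). In Mettl3 over pair-fed livers F10 was at -0.24 (SE 0.13, adjusted p = 0.143). F9 was at -0.33 (SE 0.13, adjusted p = 0.0918) in ethanol and -0.35 (SE 0.13, adjusted p = 0.0444) in Mettl3 over pair-fed livers, the second call being lost after scaling (-0.12, adjusted p = 0.397) and without Mettl3 liver 1 or 2, ethanol liver 3 or any 1 pair-fed liver (adjusted p up to 0.144). These genes encode the precursors of the proteases that assemble on the factor VIII and factor V cofactors. Pros1, the cofactor of protein C, was at 0.28 (SE 0.10, adjusted p = 0.0401) in Mettl3 over pair-fed livers, lost without any 1 Mettl3 or pair-fed liver (adjusted p up to 0.111), and at 0.03 (SE 0.11, adjusted p = 0.846) in ethanol over pair-fed livers. F7, the protease that tissue factor engages, passed in neither, at -0.05 in ethanol and -0.06 in Mettl3 over pair-fed livers. F7, F10 and Proz stand in a row on chromosome 8, with 1498 bases between F7 and F10 and 3907 between F10 and Proz.

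F5 and F13b, a cofactor and a carrier subunit, fell in both comparisons with pair-fed livers. F13b encodes the B subunit that carries the fibrin cross-linking enzyme factor XIII in plasma. Per liver, F13b stood at 54.5, 52.3 and 76.1 FPKM (Mettl3), 74.8, 58.1 and 61.7 FPKM (ethanol) and 106, 111 and 114 FPKM (pair-fed). Every pair-fed liver exceeded every ethanol-fed liver, and the fold change was -0.77 (SE 0.11, adjusted p = 0.00361) in ethanol and -0.87 (SE 0.15, adjusted p = 0.00265) in Mettl3 livers. F5 encodes factor V, the cofactor of activated factor X. For F5 the FPKM values were 89.5, 81.00 and 98.8 in Mettl3 livers, 133, 104 and 94.7 in ethanol livers and 135, 157 and 154 in pair-fed livers. Ethanol liver 1 was just under pair-fed liver 1 and the other ethanol-fed livers were lower, at -0.43 (SE 0.14, adjusted p = 0.0479) in ethanol and -0.72 (SE 0.14, adjusted p = 0.00387) in Mettl3 livers. The F5 call in ethanol livers was lost after scaling (-0.26, adjusted p = 0.102) and without ethanol liver 2 or 3 or any 1 pair-fed liver (adjusted p up to 0.153).

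The contact and kinin genes held the largest fall of all members, that of Klkb1, which encodes plasma prekallikrein, the protease that releases bradykinin from kininogen. FPKM of Klkb1 came to 15.98, 14.2 and 34.6 in the Mettl3 group, 39.6, 22.8 and 23.8 in the ethanol group and 71.9, 81.02 and 89.2 in the pair-fed group. Pair-fed livers were well above the others, Mettl3 liver 3 and ethanol liver 1 were the highest of their groups, and means were 21.6 ± 11.3 FPKM in Mettl3 livers, 28.7 ± 9.41 FPKM in ethanol livers and 80.7 ± 8.64 FPKM in pair-fed livers (SD, n = 3 each). The fold change was -1.50 (SE 0.21, adjusted p = 0.0029) in ethanol and -1.96 (SE 0.32, adjusted p = 0.00191) in Mettl3 over pair-fed livers, and -1.33 (adjusted p = 0.00314) and -1.74 (adjusted p = 0.00213) after scaling. GENCODE annotates another gene, Gm45753, over Klkb1 on the same strand, and how the authors' counting treated reads they share is not stated. F11, the neighbouring gene 4632 bases away on chromosome 8, encodes factor XI and passed in neither comparison, at -0.50 (SE 0.28, adjusted p = 0.19) in ethanol and -0.61 (SE 0.26, adjusted p = 0.0792) in Mettl3 over pair-fed livers. Kng1, the main kininogen gene here, supplies the substrate of kallikrein. The Mettl3 livers held Kng1 at 808, 792 and 751 FPKM, the ethanol livers at 639.8, 753 and 762 FPKM and the pair-fed livers at 891, 837 and 844 FPKM. Ethanol-fed livers of both viruses lay below the pair-fed range without passing the test, at -0.26 (SE 0.11, adjusted p = 0.0947) in ethanol and -0.13 (SE 0.10, adjusted p = 0.316) in Mettl3 livers, the second turning to 0.10 (adjusted p = 0.555) after scaling. Kng2, the second mouse kininogen gene, was at 0.16 (SE 0.13, adjusted p = 0.351) in ethanol and 0.21 (SE 0.14, adjusted p = 0.217) in Mettl3 livers, and since Kng1 and Kng2 are alike in sequence the split of reads between them is uncertain. F12, which starts the contact pathway, was at -0.34 (SE 0.11, adjusted p = 0.0289) in Mettl3 and at -0.23 (SE 0.10, adjusted p = 0.108) in ethanol over pair-fed livers. The Mettl3 call for F12 was lost after scaling (-0.11, adjusted p = 0.263) and without Mettl3 liver 1 or 2 or any 1 pair-fed liver (adjusted p up to 0.1).

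Cpb2, a brake on fibrinolysis, rose in both ethanol-fed groups, and the plasmin genes did not. Its product, the thrombin-activatable fibrinolysis inhibitor, is a carboxypeptidase that removes the lysines to which plasminogen binds. Cpb2 measured 441, 528 and 365 FPKM in Mettl3 livers 1, 2 and 3, 288, 399 and 361 FPKM in ethanol livers and 221, 204 and 204 FPKM in pair-fed livers. All ethanol-fed livers exceeded the pair-fed livers, and means were 444 ± 81.7 FPKM in Mettl3 livers, 349 ± 56.6 FPKM in ethanol livers and 209.8 ± 9.97 FPKM in pair-fed livers (SD, n = 3 each). Cpb2 was at 0.72 (SE 0.13, adjusted p = 0.00742) in ethanol and 1.06 (SE 0.16, adjusted p = 0.00149) in Mettl3 over pair-fed livers, and at 0.89 (adjusted p = 0.0085) and 1.29 (adjusted p = 0.00194) after scaling. Plg encodes plasminogen, the precursor of the clot-dissolving protease plasmin. Per liver, Plg stood at 842, 842 and 956 FPKM (Mettl3), 763, 835 and 804 FPKM (ethanol) and 1018, 1008 and 1015 FPKM (pair-fed). Ethanol livers were lowest and did not overlap the Mettl3 livers, with -0.34 (SE 0.09, adjusted p = 0.0255) in ethanol and -0.21 (SE 0.10, adjusted p = 0.102) in Mettl3 over pair-fed livers, the second turning to 0.02 (adjusted p = 0.85) after scaling. The ethanol call for Plg was lost after scaling (-0.17, adjusted p = 0.269) and without ethanol liver 3 or any 1 pair-fed liver (adjusted p up to 0.102). Serpinf2, which encodes the plasmin inhibitor alpha-2-antiplasmin, passed in neither comparison, at -0.32 in ethanol and -0.12 in Mettl3 livers. Cpb2 over Plg within a liver was 0.511 ± 0.123 in Mettl3 livers, 0.435 ± 0.0519 in ethanol livers and 0.207 ± 0.0091 in pair-fed livers (SD, n = 3 each).

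The 3 inhibitors of clotting proteases went opposite ways: Serpina10 rose, and Serpind1 and Serpinc1 fell. Serpina10 encodes the protein Z-dependent protease inhibitor of activated factors X and XI. For Serpina10 the FPKM values were 527, 638 and 549 in Mettl3 livers, 230.5, 527 and 361 in ethanol livers and 226, 147 and 142 in pair-fed livers. Ethanol liver 1 lay just above the highest pair-fed liver, and the other ethanol-fed livers were clearly higher, with means of 571 ± 58.8 FPKM in Mettl3 livers, 373 ± 149 FPKM in ethanol livers and 172 ± 47.6 FPKM in pair-fed livers (SD, n = 3 each). The fold change was 1.07 (SE 0.31, adjusted p = 0.033) in ethanol and 1.76 (SE 0.29, adjusted p = 0.00192) in Mettl3 over pair-fed livers, the first call being lost without ethanol liver 2 or 3 or pair-fed liver 2 or 3 (adjusted p up to 0.118). Serpind1 encodes heparin cofactor II, which inhibits thrombin. FPKM of Serpind1 came to 111, 94.7 and 189 in the Mettl3 group, 195, 130.00 and 137 in the ethanol group and 266, 270.3 and 291 in the pair-fed group. Pair-fed livers were above all others, Mettl3 liver 3 and ethanol liver 1 being the nearest, and Serpind1 was at -0.86 (SE 0.16, adjusted p = 0.00734) in ethanol and -1.12 (SE 0.25, adjusted p = 0.00609) in Mettl3 livers. Serpinc1 encodes antithrombin, the main inhibitor of thrombin and activated factor X. The Serpinc1 level was 629.7, 672 and 791 FPKM in Mettl3 livers, 831, 737 and 702 FPKM in ethanol livers and 979.8, 1005 and 1114 FPKM in pair-fed livers. No ethanol-fed liver reached the pair-fed range, and Serpinc1 was at -0.45 (SE 0.11, adjusted p = 0.0189) in ethanol and -0.57 (SE 0.12, adjusted p = 0.00524) in Mettl3 over pair-fed livers. The ethanol call for Serpinc1 was lost after scaling (-0.28, adjusted p = 0.0588) and without ethanol liver 3 or any 1 pair-fed liver (adjusted p up to 0.0783).

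**Figure D3:**
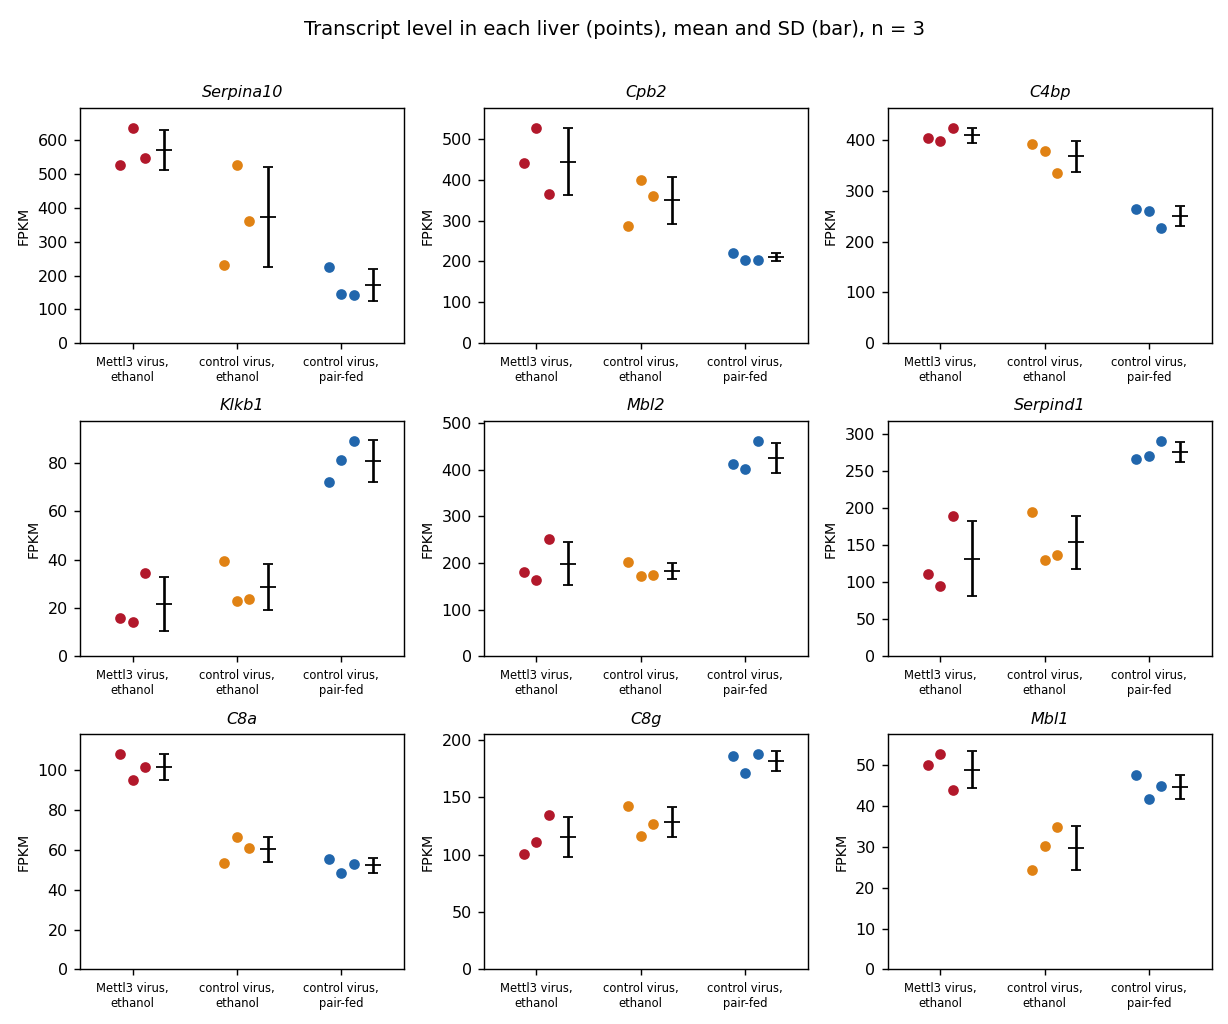
FPKM of 9 members in each liver (points) with the group mean and SD (bars), Mettl3 livers to the left, then ethanol and pair-fed livers. Serpina10, Cpb2 and C4bp are higher and Klkb1, Mbl2, Serpind1 and C8g lower in both ethanol-fed groups than in pair-fed livers, and C8a and Mbl1 are higher in Mettl3 than in ethanol livers with no overlap.

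Ratios of 2 members within a liver, which do not depend on library scaling, set partners of a step side by side. They were chosen with the members' values known and carry no test. The Serpina10 over Proz ratio was 9.50, 11.6 and 6.99 in Mettl3 livers, 3.34, 7.95 and 5.91 in ethanol livers and 2.10, 1.48 and 1.51 in pair-fed livers. This is the inhibitor over its cofactor, and all ethanol-fed livers were above the pair-fed livers. In Mettl3 livers Cpb2 over Plg came to 0.524, 0.627 and 0.381, in ethanol livers to 0.377, 0.478 and 0.45 and in pair-fed livers to 0.217, 0.202 and 0.201. The C4bp over C4b ratio was 2.04, 2.00 and 1.71 in Mettl3 livers, 1.71, 1.45 and 1.52 in ethanol livers and 0.845, 0.964 and 0.93 in pair-fed livers. Both ratios were higher in every ethanol-fed liver of either virus than in every pair-fed liver. Klkb1 over F12 was 0.135 ± 0.056 in Mettl3 livers, 0.17 ± 0.0391 in ethanol livers and 0.41 ± 0.0265 in pair-fed livers (SD, n = 3 each), with every ethanol-fed liver below the pair-fed livers. Proc over Pros1, protein C over its cofactor, was 4.62 ± 0.808 in Mettl3 livers, 6.02 ± 1.25 in ethanol livers and 9.39 ± 0.0952 in pair-fed livers (SD, n = 3 each), again with no overlap between ethanol-fed and pair-fed livers. Serpind1 over Serpinc1 was 0.186 ± 0.0499 in Mettl3 livers, 0.202 ± 0.0298 in ethanol livers and 0.267 ± 0.00538 in pair-fed livers (SD, n = 3 each), lower in all ethanol-fed livers than in pair-fed livers. Mbl1 over Mbl2, the lectin pair, was 0.258 ± 0.0749 in Mettl3 livers, 0.165 ± 0.0412 in ethanol livers and 0.105 ± 0.00914 in pair-fed livers (SD, n = 3 each), and all ethanol-fed livers exceeded the pair-fed livers. Not every ratio set both ethanol-fed groups apart from pair-fed livers. Klkb1 over F11 was 1.31 ± 0.836 in Mettl3 livers, 1.51 ± 0.166 in ethanol livers and 3.18 ± 1.25 in pair-fed livers (SD, n = 3 each). For it and for C9 over Hc, ethanol livers lay below pair-fed livers while Mettl3 livers overlapped them. C8a over C8b, given above, overlapped in every comparison. Of the 14 ratios computed, C8a over C8g alone kept Mettl3 and ethanol livers apart, and the other 13 overlapped between them.

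**Figure D4:**
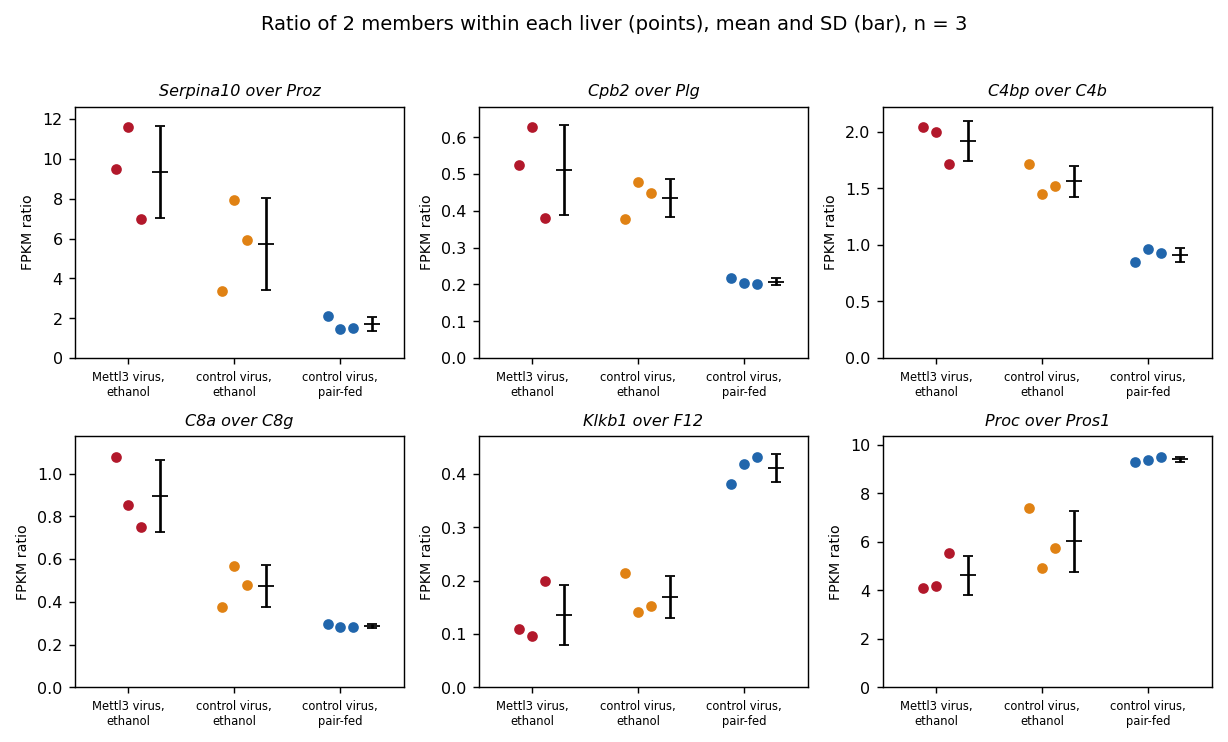
Ratio of the FPKM of 2 members in each liver (points) with the group mean and SD (bars). C8a over C8g separates all 3 groups, and the other 5 ratios separate the ethanol-fed livers of both viruses from pair-fed livers only.

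The question of the Mettl3 virus itself is addressed by Mettl3 over ethanol livers, both given ethanol. No member passed: limma called 0 of 39 with an unadjusted p under 0.05 for 3, against 723 of 9706 genes, and limma-voom on the recovered reads also called 0. The 3 were C8a at 0.75 (SE 0.12, 95% interval 0.46 to 1.04, adjusted p = 0.453), Mbl1 at 0.71 (0.34 to 1.08, adjusted p = 0.569) and Serpina10 at 0.69 (0.01 to 1.36, adjusted p = 0.641). Without ethanol liver 1 the Serpina10 value was 0.38. Over the alternatives, the adjusted p of C8a ran from 0.116 to 0.979. The authors' deposited table gives C8a a log2 fold change of 0.83 with q = 0.00333 from the authors' own test, the one member called there, against 0.613% of 16470 genes. Mettl3 livers were above ethanol livers with no overlap for 5 members (C8a, Mbl1, C4bp, Pros1 and Plg) and below for 0, against 6.17% and 6.62% of all genes. The members' median log2 fold change was -0.01, against -0.04 for all genes. For the 4 members with the largest falls in ethanol over pair-fed livers, the intervals of the difference were -1.30 to 0.38 for Klkb1, -0.32 to 0.52 for Mbl2, -0.28 to 0.77 for C9 and -0.93 to 0.40 for Serpind1. They were -0.31 to 0.25 for the abundant F2 and -0.15 to 0.42 for Plg. C3 was at 0.47 (SE 0.21, adjusted p = 0.641) and Cpb2 at 0.34 (SE 0.19, adjusted p = 0.645), and in both genes a Mettl3 liver lay within the ethanol range. Without ethanol liver 1 the C3 value was 0.27 and the Cpb2 value 0.21, and Cpb2 was also at 0.21 without Mettl3 liver 2. In the authors' deposited table of ethanol over pair-fed livers, 5 members were higher (C8a, C8b, C4bp, Cpb2 and Serpina10) and 9 lower (C9, Hc, C1ra, Mbl2, F13b, Klkb1, Proc, Proz and Serpind1) at q under 0.05. Of all 16842 genes there, 26.6% were called, 2361 genes higher and 2117 lower. Ethanol liver 1 was the liver of its group nearest to the pair-fed mean for 16 of the 23 members called there (69.6%), and Mettl3 liver 3 for 20 of the 26 called in Mettl3 livers (76.9%), shares to be read beside the 64.9% and 80.7% of all called genes.

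A further 45 genes of the same cascades, made in part by other liver cells, were taken as partners, of which 43 were in both tables and 29 to 32 passed the filter on low values. In ethanol over pair-fed livers 2 of the 29 tested rose, Thbd among them, and 13 fell, 2 and 9 after scaling. Of all genes, 10% were higher and 26% lower there, 17.2% and 17.7% after scaling. In Mettl3 over pair-fed livers 6 of the 32 tested rose and 17 fell, 8 and 10 after scaling. The shares of all genes were 13.9% higher and 34.9% lower, 23.3% and 23.8% after scaling. Leaving out pair-fed liver 1, 2 or 3 left 9, 6 and 6 partner calls in place of 15 in ethanol livers, and leaving out Mettl3 liver 1, Mettl3 liver 2, pair-fed liver 2 or pair-fed liver 3 left 14, 10, 11 and 13 in place of 23 in Mettl3 livers. In Mettl3 over ethanol livers limma called 0 of 32, with an unadjusted p under 0.05 for 1, against 723 of 9706 genes, and limma-voom called 0 partners. Thbd encodes thrombomodulin, the endothelial receptor that turns thrombin towards protein C. Per liver, Thbd stood at 11.6, 16.3 and 2.23 FPKM (Mettl3), 6.30, 5.64 and 17.8 FPKM (ethanol) and 1.30, 1.27 and 1.34 FPKM (pair-fed). Its values varied widely within both ethanol-fed groups and all exceeded the pair-fed livers, at 2.07 (SE 0.36, adjusted p = 0.00612) in ethanol and 1.95 (SE 0.59, adjusted p = 0.0231) in Mettl3 livers. The Thbd call in Mettl3 livers was lost without Mettl3 liver 1 or 2 or any 1 pair-fed liver (adjusted p up to 0.0842).

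The partners that fell furthest were Cd59a, Colec11 and Vsig4. Cd59a encodes the membrane protein that stops C9 from polymerising. FPKM of Cd59a came to 11.8, 9.96 and 16.3 in the Mettl3 group, 16.3, 12.4 and 13.6 in the ethanol group and 26.04, 28.1 and 28.6 in the pair-fed group. Pair-fed livers were far above all others, with -0.93 (SE 0.12, adjusted p = 0.00227) in ethanol and -1.09 (SE 0.17, adjusted p = 0.00159) in Mettl3 livers. Colec11, a collectin that starts the lectin pathway, was at -0.77 (SE 0.14, adjusted p = 0.0071) in ethanol and -0.86 (SE 0.17, adjusted p = 0.00431) in Mettl3 over pair-fed livers. Vsig4, a complement receptor of Kupffer cells that binds C3 fragments, was at -0.76 (SE 0.20, adjusted p = 0.0247) and -0.98 (SE 0.29, adjusted p = 0.0199) in the same 2 comparisons, the first call being lost without any 1 pair-fed liver and the second without Mettl3 liver 1 or 2 or pair-fed liver 2 or 3 (adjusted p up to 0.086 and 0.0623). Vsig4 is also on the Kupffer marker list and Colec11 on the stellate marker list used here. Of 6 Kupffer markers, 5 fell and none rose in either ethanol-fed group over pair-fed livers, and their summed level was 69.2 to 144 FPKM in Mettl3 livers, 86.0 to 134 FPKM in ethanol livers and 166 to 193 FPKM in pair-fed livers. The 5 Kupffer calls in ethanol livers became 3 without pair-fed liver 1 and 1 (Adgre1) without pair-fed liver 2 or 3, and the 5 in Mettl3 livers became 3 without Mettl3 liver 1 or 2 or pair-fed liver 2 or 3. Of 6 sinusoidal endothelial markers, 1 rose and 5 fell in ethanol livers and 1 rose and 3 fell in Mettl3 livers, with sums of 86.2 to 104 FPKM in Mettl3, 80.7 to 89.5 FPKM in ethanol and 113 to 129 FPKM in pair-fed livers. The endothelial sums include Lyve1, the marker that rose in both. The 5 lower endothelial calls in ethanol livers became 3 without pair-fed liver 1 and 2 without pair-fed liver 2 or 3, and the 3 in Mettl3 livers became 1 without Mettl3 liver 1 or 2, 2 without pair-fed liver 2 or 3 and 5 without Mettl3 liver 3. Of 6 stellate markers, 4 fell in Mettl3 and 3 in ethanol livers, with sums of 119 to 131 FPKM in Mettl3, 111 to 133 FPKM in ethanol and 127 to 151 FPKM in pair-fed livers. Most of each stellate sum was Dcn, at 101 to 112 FPKM in Mettl3, 93.4 to 111 FPKM in ethanol and 94.4 to 116 FPKM in pair-fed livers. The 3 stellate calls in ethanol livers became 2 without ethanol liver 3 or pair-fed liver 1, and 1 (Colec11) without pair-fed liver 2 or 3, while those in Mettl3 livers stayed at 3 or 4 with any 1 library left out. Neutrophil markers summed to 76.5, 105 and 49.0 FPKM in Mettl3 livers, 9.32, 67.6 and 74.0 FPKM in ethanol livers and 7.57, 7.46 and 11.6 FPKM in pair-fed livers, so ethanol liver 1 was within the pair-fed range. Of the 6 neutrophil markers, 4 of the 5 tested rose in Mettl3 livers, and 1 of the 4 tested was called higher in ethanol livers, S100a8 (adjusted p = 0.0458), whose groups overlapped. The S100a8 call in ethanol livers was lost without ethanol liver 2 or 3 or any 1 pair-fed liver (adjusted p up to 0.151), and without ethanol liver 1, 4 neutrophil markers were called. The 4 neutrophil calls in Mettl3 livers became 2 (S100a8 and S100a9) without Mettl3 liver 1 or 2 or any 1 pair-fed liver. Platelet markers (3 of 5 in the tables; 1.19 to 1.99 FPKM) and monocyte-derived macrophage markers (1.50 to 3.36 FPKM) were low in sum in every library, and 0 of them were tested. Of the 7 hepatocyte markers, Tat and Cps1 rose in both comparisons with pair-fed livers and Ttr fell in Mettl3 livers; the Cps1 calls were lost without pair-fed liver 1 or 2, in ethanol livers also without ethanol liver 3 and in Mettl3 livers also without Mettl3 liver 1 or 3. After scaling, Kupffer calls in Mettl3 livers were 1 higher and 4 lower, endothelial calls 4 lower in ethanol and 2 lower in Mettl3 livers, stellate calls 1 lower in ethanol and 3 lower in Mettl3 livers, and neutrophil calls 5 higher in Mettl3 livers. None of the markers that had values was at 0 in any library, and the part of these cell types in the members' changes was not tested.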

How the data were processed

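RNA-seq of 9 mouse livers was analysed from 2 tables, each of 6 libraries, that share the ethanol-fed columns (these differed by a relative 1.08e-06 at most). Per the submitters' processing notes, fastp, HISAT2 and HTSeq were used on build mm10; versions, strand handling and kit strandedness are not given in the sources used here. The deposited FPKM values were made by the authors by scaling fragments to gene length and library total. The signal columns, per the file headers, are the authors' means of size-factor-normalised counts. The deposited ratio (fold) and log2 columns were made by the authors for each table's 2 groups, as were the p-value and q-value columns, per the file headers. No column was left unmapped (0).

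Members were found by gene symbol, and all 39 matched RefSeq, which gave coordinates for all 39 and a promoter entry for 29. Members, classes, partner and marker lists (hepatocyte, Kupffer cell, sinusoidal endothelium, stellate cell, neutrophil, platelet, monocyte-derived macrophage) and ratios were chosen with earlier results of these data known. The test was limma 3.58.1 (R 4.3.3; lmFit, eBayes with trend and robust settings) on log2(FPKM + 1), a scale that understates changes of low genes, for genes reaching an FPKM of 1 in 3 or more libraries of the fit, with Benjamini-Hochberg adjustment over all genes tested, threshold 0.05. All 39 members passed the filter. Ethanol over pair-fed and Mettl3 over ethanol livers were fitted on 6 libraries each, and Mettl3 over pair-fed livers on 9. The test was checked on simulated data, drawn independently for each gene with a fixed spread and with changes larger than those of most members. That simulation held no liver that stood apart, so it does not check the test for such livers or for smaller changes. Values are means ± SD of n = 3. Tables and figures were made in Python (3.11.15; numpy 2.4.6; pandas 2.3.3; figures with matplotlib 3.10.9).

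Whole reads were recovered from the signal and FPKM steps (100% of genes whole within 0.05) for depth and for limma-voom. The planned test of counts was set for deposited counts only and was not run on the recovered reads. Alternatives were median-ratio scaling, a pseudocount of 0.1, no filter, a replicate block, limma-voom, another set of libraries in the fit, and each library left out. Values per liver are given for the 25 members with a called change of at least 0.5 on the log2 scale in some comparison or with the highest level in their class, and the other 14 by fold change. Of the partners, up to 3 per direction and comparison with the largest called change are named. The partners C4a and Serpina5 were not analysed here. Some partners that this rule takes are not reported here.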

Additional observations from a re-analysis of the deposited data

How the results depend on the processing

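No called member changed sign under any alternative; over all 39, median-ratio scaling left 27 in place of 31 negative fold changes in ethanol over pair-fed livers and 23 in place of 30 in Mettl3 over pair-fed livers. In ethanol over pair-fed livers, 23 members called became 14 under median-ratio scaling (4 higher, 10 lower), 15 with the replicate number as a block (2 higher, 13 lower) and 11 to 27 with 1 library left out; a pseudocount of 0.1 gave 23, no filter 20, limma-voom 20 and all 9 libraries 21. In Mettl3 over pair-fed livers, 26 became 17 to 30 with 1 library left out, 18 under scaling and 22 with the block; a pseudocount of 0.1 gave 26, no filter 22, limma-voom 25 and 6 libraries 24. In Mettl3 over ethanol livers the count was 0 under every alternative. Partners called went from 15 to between 6 and 20 (ethanol) and from 23 to between 10 and 27 (Mettl3 over pair-fed) with 1 library left out. Of single members' alternatives, 73 of the ethanol and 70 of the Mettl3 over pair-fed comparison ended a call, and 4 and 7 made one. Leaving out a library of a compared group leaves 2 against 3 in that comparison. Mettl3 over pair-fed livers were fitted with all 9 libraries, so leaving out an ethanol liver leaves 3 against 3 there. Calls were still lost in that way, those of Hc and C9 without ethanol liver 2 or 3 and those of Cfb and F9 without ethanol liver 3. Beyond this the cause was not tested. Deviations from the group mean in same-numbered livers had r of -0.350, 0.394 and -0.412 between Mettl3 and ethanol livers. They had r of -0.188, -0.113 and 0.113 between ethanol and pair-fed livers, and 0.048, -0.050 and 0.094 between Mettl3 and pair-fed livers. Differently numbered livers ran from -0.513 to 0.580. With 3 libraries a group and a liver that stood apart in each ethanol-fed group, these values cannot tell whether the numbers pair the samples. Each member had at least 610 reads in each library, and how counting error compares with the spread between livers was not tested.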
